A study of Mus musculus with 6 samples.

Results

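The Hox genes of the mouse Hoxa, Hoxb, Hoxc and Hoxd clusters were examined in 3 lines of induced pluripotent stem (iPS) cells, each compared on 2-colour arrays with RNA pooled from embryonic stem (ES) cells. Every probe whose gene symbol, current or as a synonym, was Hoxa, Hoxb, Hoxc or Hoxd followed by a number was taken as a member. This gave 50 probes for 36 genes, out of 41174 gene probes and 18295 genes on the array. All members carried their current symbol.

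The lines, iPS1, iPS4 and iPS5, were Oct4-reporter (OG2) mouse embryonic fibroblasts that had received pMX retroviruses for 16 genes, namely Oct4, Sox2, Klf4 and c-Myc and the TFIID proteins TBP, TAF13, TAF12, TAF11, TAF10, TAF9, TAF7, TAF6, TAF5, TAF4, TAF4b and TAF3. TFIID is the general transcription factor that recognises core promoters. Colonies positive for the reporter were picked after 12 days and expanded. Each line is 1 picked colony grown up, and the labels still give its cell type as MEF. The ES cells are of the same OG2 strain. Their pool is the only control RNA and is 1 sample, and both cell types were grown with LIF on irradiated fibroblast feeder cells, which are themselves a source of RNA. The starting fibroblasts were not on these arrays, so no value below compares a line with them. Each line had 2 arrays of opposite dye. The labels do not say whether these had separate RNA, so a line counts as 1 replicate and p-values for a single line measure only the spread between duplicate arrays, which may be technical.

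Hox proteins are homeodomain transcription factors that give cells their position along the head-to-tail axis of the embryo. Genes at one end of a cluster are switched on early and in anterior tissue, and genes at the other end later and in posterior tissue. In pluripotent cells the clusters are held silent by Polycomb complexes and carry activating and repressive histone marks together, and fibroblasts keep the Hox code of the body region they came from. Retinoic acid, Wnt and Fgf signals and the Cdx factors open the clusters during differentiation, and Meis, Pbx and Pknox proteins are DNA-binding partners of Hox proteins. The Hoxa genes lie on chromosome 6, the Hoxb genes on chromosome 11, the Hoxc genes on chromosome 15 and the Hoxd genes on chromosome 2.

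The start regions of 4 members that the RefSeq promoter table (GRCm38.p6) holds are shown as examples. Each runs from 250 bases before to 50 bases after the annotated start, 5′ to 3′ on the gene's strand, with CG dinucleotides in capitals. Hoxd13, Hoxd1 and Hoxa9 are 3 of the 6 genes that differed among the lines. Hoxa7 was above background in both channels of every array. The windows are chr2:74667975-74668274 (plus strand) for Hoxd13, chr2:74762730-74763029 (plus strand) for Hoxd1, chr6:52227321-52227620 (minus strand) for Hoxa9 and chr6:52218524-52218823 (minus strand) for Hoxa7.
Hoxd13: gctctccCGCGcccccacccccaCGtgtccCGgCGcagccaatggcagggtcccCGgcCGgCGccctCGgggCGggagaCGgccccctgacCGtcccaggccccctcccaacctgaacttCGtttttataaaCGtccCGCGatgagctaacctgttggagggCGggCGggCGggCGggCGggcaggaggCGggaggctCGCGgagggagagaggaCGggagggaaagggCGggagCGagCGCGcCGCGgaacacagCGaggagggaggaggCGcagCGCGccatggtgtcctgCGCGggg
Hoxd1: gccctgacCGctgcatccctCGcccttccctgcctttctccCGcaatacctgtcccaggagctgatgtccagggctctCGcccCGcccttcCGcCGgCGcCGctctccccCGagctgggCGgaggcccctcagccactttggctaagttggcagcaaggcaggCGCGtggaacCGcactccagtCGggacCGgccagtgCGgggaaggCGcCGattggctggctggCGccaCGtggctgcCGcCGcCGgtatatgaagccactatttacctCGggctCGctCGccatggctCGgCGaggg
Hoxa9: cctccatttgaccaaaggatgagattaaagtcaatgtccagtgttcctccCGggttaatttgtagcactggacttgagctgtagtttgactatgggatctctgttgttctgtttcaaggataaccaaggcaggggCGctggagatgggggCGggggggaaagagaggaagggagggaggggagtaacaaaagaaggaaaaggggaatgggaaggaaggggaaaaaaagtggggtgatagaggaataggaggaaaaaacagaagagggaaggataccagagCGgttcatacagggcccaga
Hoxa7: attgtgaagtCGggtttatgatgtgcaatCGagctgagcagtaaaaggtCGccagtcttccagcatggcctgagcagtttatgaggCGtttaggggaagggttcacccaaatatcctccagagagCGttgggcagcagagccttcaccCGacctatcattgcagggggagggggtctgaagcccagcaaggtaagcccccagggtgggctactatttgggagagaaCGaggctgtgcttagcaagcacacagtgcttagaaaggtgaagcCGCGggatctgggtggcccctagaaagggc
The window of Hoxd13 held 37 CG dinucleotides, that of Hoxd1 held 29, that of Hoxa7 held 9 and that of Hoxa9 held 4. Over the 23 windows of the 21 members in the table the median was 15 (range 4 to 45), against a median of 7 over all 32851 windows of the same length. A few short motifs were searched on both strands. TATAAA, the core of a TATA box, was in 4 of the 23 member windows (17.4%) and 13.6% of all windows, and the Hoxd13 window is one of the 4. TTTATG, a Cdx-type motif, was in 5 member windows (21.7%) and 11.9% of all windows, and the Hoxa7 window is one of the 5. AGGTCA, a nuclear receptor half-site, was in 6 member windows (26.1%) and 16.3% of all windows. None of these counts says whether a factor bound there.

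Most Hox probes were close to background. A probe was called above background in a channel where its raw signal was higher than 95% of the 604 spots that each array carries of a dim control. By that limit 5 genes were above background in the iPS channel of every array: Hoxa3, Hoxa6, Hoxa7, Hoxa13 and Hoxb6. The ES channel held 6 such genes, the same 5 and Hoxb13, which acts in the tail and the prostate. As shares of probes, 10% of Hox probes passed in every iPS channel and 12% in every ES channel. Of all gene probes, 46.6% and 47.3% did. Without the first iPS5 array the iPS count was 14 genes, and without the second iPS5 array the ES count was 16 genes, both of 36.

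Within a line, 18 of 36 genes were above background on both arrays in the iPS channel of iPS1, against 24 in the ES channel of the same arrays. In iPS4 the numbers were 20 genes in the iPS channel and 24 in the ES channel. In iPS5 they were 5 and 6. By probe, iPS4 had 42% of Hox probes above background on both arrays in the iPS channel and 56% in the ES channel. Of all gene probes, 64.9% and 73.8% were. In iPS5 the Hox shares were 10% and 12%, against 46.9% and 47.3% of all gene probes. No Hox probe was above background on both arrays of a line in the iPS channel and on neither in the ES channel. The opposite was seen for 2 probes, Hoxb2 and the dimmer Hoxb3 probe, both in iPS1. These one-sided counts were not made over all gene probes, so whether they are unusual was not tested. On the second iPS1 array the limit was 76.7 units in the iPS channel and 57.4 units in the ES channel. The Hoxb cluster had the highest share in iPS1, with 57.1% of its probes above background on both arrays in the iPS channel and 78.6% in the ES channel, against 66.8% and 72.8% of all gene probes. The Hoxc cluster was at 12.5% in the iPS channel and 50% in the ES channel of iPS1. In iPS5 no Hoxc or Hoxd probe was above background on both arrays in either channel.

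**Figure D1:**
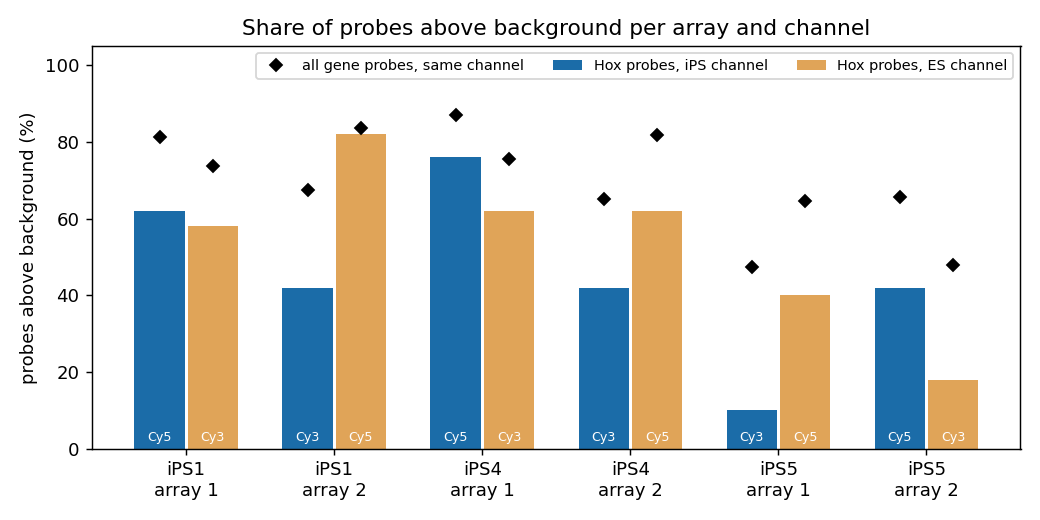
Share of the 50 Hox probes above background (bars, percent) in the iPS channel (left bar) and the ES channel (right bar) of each array, with the dye written in the bar and the share of all gene probes in the same channel as a diamond. The bars run between 10% and 82%, the diamonds between 47.4% and 87.1%, every bar lies below its diamond, and the Cy3 channel has the lower bar on every array.

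The channel dye moved with these shares. On the first iPS1 array the iPS RNA was in Cy5 and 31 of 50 Hox probes were above background in it, and on the second array it was in Cy3 and 21 were. The Cy3 channel was the lower on every array, lowest in iPS5, where 5 probes were above background in the iPS channel of the first array and 9 in the ES channel of the second. Both arrays of a line were therefore used for the counts of genes and probes by line. The part of the dye in single-array counts was not tested.

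The ratios of iPS over ES were small. They are the log2 ratios that the authors deposited per array. These matched raw ratios with no background correction (r = 0.996 to 0.997 across gene probes, which are not independent replicates), with slopes of 0.99, so the ratios of dim probes are compressed towards 0. Averaged over the 3 lines, the 50 Hox probes ran from -0.39 to 0.34 on the log2 scale with a median of -0.04, against a median of -0.0024 over all gene probes. None passed 2-fold, which 0.729% of all gene probes did. The mean was below 0 for 39 of 50 Hox probes, where 51.3% of all gene probes were below 0. By line, 41 of the 50 were below 0 in iPS1, 40 in iPS4 and 26 in iPS5. Of the 41174 gene probes, 21571, 21010 and 20639 were below 0 in the same order of lines. Of the 50 probes, 11 were below 0 on all 6 arrays, 1 was above 0 on all 6, that of Hoxb6, and 38 had mixed signs. The same count was not made over all gene probes, so whether these numbers are unusual was not tested.

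In the test of the 3 line means against 0 (limma's moderated test, Benjamini-Hochberg adjustment over 41174 probes, threshold of 0.05), 0 of 50 Hox probes were called, with 9.72% of all gene probes called (4.58% higher and 5.14% lower). At an unadjusted p under 0.05 there were 13 Hox probes, 2 higher and 11 lower, which is 26% of them, against 29.6% of all gene probes. The lowest adjusted p was 0.0591, for Hoxb6. Without line iPS5, limma called 3 Hox probes, Hoxc5 higher and Hoxb2 and Hoxc6 lower, with 12.7% of all gene probes called. With normexp background correction of the raw signals at offset 0 it called 2, Hoxb2 and Hoxc6, both lower, with 11.9% of all gene probes called. The test leaves out the spread of the ES pool: with the pool counted as 1 sample that varies like a line, 0 of 50 Hox probes and 0% of all gene probes were called, so every call of the 3-line test given below for other genes is lost there. The authors' deposited table gave 0 of the 50 probes a p-value under 0.05, and its smallest was 0.3484, for Hoxc6, while it gave such a value to 8.39% of all gene probes.

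**Figure D2:**
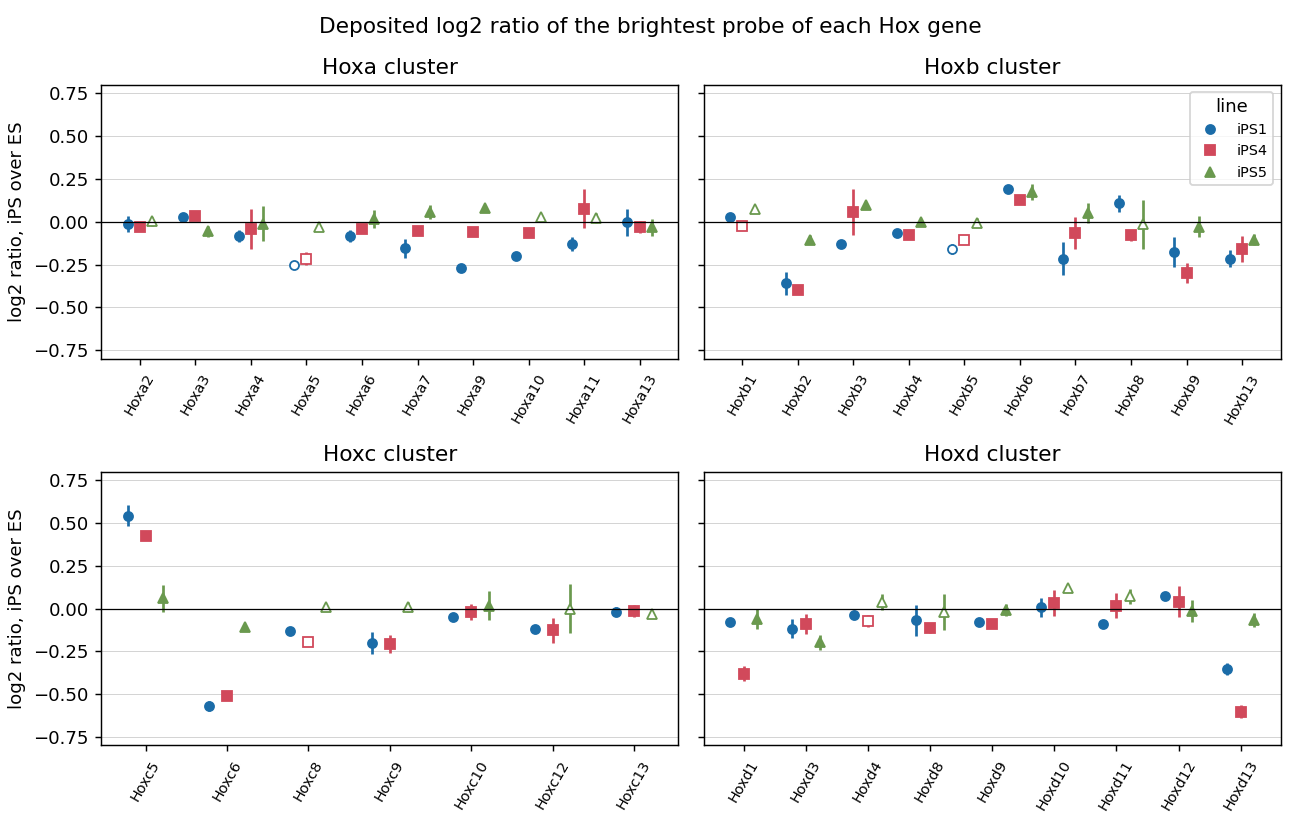
Deposited log2 ratio of iPS over ES for the brightest probe of each of the 36 Hox genes, by cluster, with genes from anterior to posterior. Points are line means and bars span the 2 arrays of a line. All points lie between -0.60 and 0.54, and hollow points mark lines in which neither channel was above background on either array. Hoxc5, Hoxc6, Hoxd13 and Hoxb2 lie away from 0 in iPS1 and iPS4, with their iPS5 points nearer to it.

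The test of the 3 lines, a test of each line and a test among lines make up the 5 fits to the deposited ratios. Line by line (limma on all 6 arrays with a coefficient per line and a dye term), iPS1 had 2 Hox probes called higher, against 18.2% of all gene probes, and 13 called lower (26%), against 16.4%. In iPS4, 1 was called higher, against 16.9% of all, and 10 lower (20%), against 18.1%. In iPS5, 1 was called higher, against 9.53% of all, and 1 lower, against 10.1%. The same ES pool is the control in all 3 lines. These counts moved with single arrays, as did the shares of all gene probes. In iPS1, 34.6% of all gene probes and 15 Hox probes were called, against 16.4% and 6 without its first array and 22.2% and 6 without its second. In iPS4, 35.1% of all and 11 Hox probes were called, against 20.8% and 6 without its first array, 20% and 6 without its second, and 44% and 17 without either iPS5 array. In iPS5, leaving out any 1 array left 1 Hox call in place of 2. Of the 28 single-line calls, 11 were lost without either iPS1 array and 8 without either iPS4 array. Another 8 held in all alternatives run for them, those of Hoxb2, Hoxc5, Hoxc6 and Hoxd13 in iPS1 and iPS4. One alternative kept only probes above background in a channel on every array. It included Hoxc6 but left out the called probes of Hoxb2, Hoxc5 and Hoxd13, so those calls were not put to it. The F test of equal line coefficients called 6 Hox probes (12%), with 17.1% of all gene probes called. These 6 were Hoxa9, Hoxb2, Hoxc5, Hoxc6, Hoxd1 and Hoxd13.

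Markers of fibroblasts, the cells of origin and of the feeder layer, were counted in the same fits. The shares of all gene probes called in each fit, given above, apply to this and the later lists. Of 36 fibroblast genes measured, 0 were higher and 6 lower in the test of the 3 lines, among them the matrix gene Dcn at -1.47 and the surface marker Thy1 at -0.87, and by line 26 were lower and 1 higher in iPS1, 27 lower and 2 higher in iPS4, and 14 lower and 4 higher in iPS5. Their summed raw signal was 0.0559% to 0.0864% of the total in iPS channels and 0.0855% to 0.120% in ES channels. Of the 36, 26 were above background in every iPS channel and 26 in every ES channel, and Fap was above background in no ES channel. Of 18 primitive streak and early mesoderm genes, 0 were called in the test of the 3 lines (6 at an unadjusted p under 0.05), and by line 10 were higher and 2 lower in iPS1, 10 higher and 1 lower in iPS4, and 6 higher and 1 lower in iPS5. T was at 3.89 in iPS1, 3.22 in iPS4 and 0.73 in iPS5, and Sp5 was at 3.56, 3.09 and 0.74, called higher in each of the 3 lines. Hand1 was lower in each of the 3. The summed signal of the 18 genes was 0.0108% to 0.0228% in iPS channels and 0.00462% to 0.0112% in ES channels. In bulk RNA fewer cells of a type and less RNA per cell cannot be told apart. The part of the feeder cells and of the primitive streak genes in the Hox ratios was not tested.

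Hoxc5 and Hoxc6 are neighbours on chromosome 15 that act in the neck and upper trunk, and they had opposite signs. Hoxc5 (chr15:103014008-103017429) had log2 ratios of 0.61 and 0.48 on the iPS1 arrays, 0.45 and 0.40 on the iPS4 arrays and 0.14 and -0.02 on the iPS5 arrays. Hoxc6 (chr15:102998226-103011882) had -0.54 and -0.60 in iPS1, -0.54 and -0.49 in iPS4 and -0.11 and -0.10 in iPS5. The arrays of iPS1 and iPS4 did not overlap those of iPS5 for either gene. Hoxc5 was called higher in iPS1 (log2 ratio 0.54, SE 0.06, limma adjusted p = 0.000273) and iPS4 (0.42, adjusted p = 0.000907), not in iPS5, and differed among the lines (adjusted p = 0.0133). Hoxc6 was called lower in iPS1 (-0.57, SE 0.05, adjusted p = 7.47e-05) and iPS4 (-0.51, adjusted p = 0.000118), and also differed among the lines (adjusted p = 0.00505). With normexp at offset 0, Hoxc5 was 0.93 in iPS1, 0.62 in iPS4 and 0.13 in iPS5, and Hoxc6 was -1.01, -0.83 and -0.50 in the same order of lines. A microRNA gene, Mir615, lies within Hoxc5, and the probe's place in the transcript was not used here.

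On the raw scale, Hoxc6 had signals of 101 and 72 units in the iPS channels of iPS1, against 111 and 134 units in the ES channels of the same arrays. Its iPS4 arrays had 84 and 78 units in the iPS channel and 103 and 178 in the ES channel. Hoxc5 had 141 and 107 units in the iPS channels of iPS1 and 76 and 86 in the ES channels. Its iPS4 arrays had 112 and 109 units in the iPS channel and 74 and 123 in the ES channel. On the second iPS4 array, with the iPS RNA in Cy3, the raw iPS signal was thus the lower. These raw signals are not corrected for dye. The 95th percentile of the dim control lay between 43.8 and 76.7 units, and the iPS signal of Hoxc6 on the second iPS1 array lay below the limit of that channel.

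The other Hoxc genes were near the limit of detection. Hoxc9, a thoracic gene, had ratios of -0.26 and -0.13 in iPS1 and -0.16 and -0.26 in iPS4, was above background in neither channel in iPS5, and was called lower in iPS1 (adjusted p = 0.0223) and iPS4 (adjusted p = 0.0182). The Hoxc8 probe was called lower in iPS4 (adjusted p = 0.00979), but it was above background in neither channel there, so no fold is given. Hoxc10, Hoxc12 and Hoxc13, which act in the lumbar and sacral region or in hair, had 4 probes with array ratios from -0.20 to 0.14 and were called in none of the 5 fits.

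Among the Hoxd genes the probe of Hoxd13, which patterns the digits and the distal limb, had the lowest ratios in iPS1 and iPS4. Its brighter probe (chr2:74668225-74671603) had -0.32 and -0.39 in iPS1, -0.56 and -0.64 in iPS4 and -0.03 and -0.11 in iPS5. No array of one line overlapped another line. It was called lower in iPS1 (-0.35, SE 0.05, limma adjusted p = 0.00103) and iPS4 (-0.60, adjusted p = 7.89e-05), and the lines differed (adjusted p = 0.00551). The second Hoxd13 probe had line coefficients of -0.05, -0.04 and 0.01 in iPS1, iPS4 and iPS5 and was called in none of the 5 fits, so the 2 probes disagree. Hoxd13 is the gene whose start region, printed above, holds the most CG dinucleotides of the 4. A link of CG content to the ratios was not tested.

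Hoxd1, at the anterior end of the same cluster, was lower in iPS4 alone among the 3 single-line fits. Its ratios were -0.43 and -0.33 in iPS4, against -0.07 and -0.09 in iPS1 and -0.12 and -0.00 in iPS5. The iPS4 coefficient was -0.38 (SE 0.05, limma adjusted p = 0.000847), and the F test of the lines gave an adjusted p of 0.031. Hoxd3, a gene of the neck vertebrae, had ratios of -0.15 and -0.24 in iPS5, -0.17 and -0.06 in iPS1 and -0.15 and -0.03 in iPS4 for the probe with the higher mean signal, which was called lower in iPS5 (adjusted p = 0.0158). That mean rests on the first iPS4 array, at 233 units in the iPS channel and 216 in the ES channel. The probe was above background on 1 of 2 ES channels and on no iPS channel in iPS5, and the second Hoxd3 probe had coefficients of 0.01, 0.09 and 0.02 in iPS1, iPS4 and iPS5 and was called in none of the 5 fits. Hoxd4, Hoxd8, Hoxd9, Hoxd10, Hoxd11 and Hoxd12 had 7 probes with array ratios from -0.16 to 0.13, none of them called in the 5 fits.

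**Figure D3:**
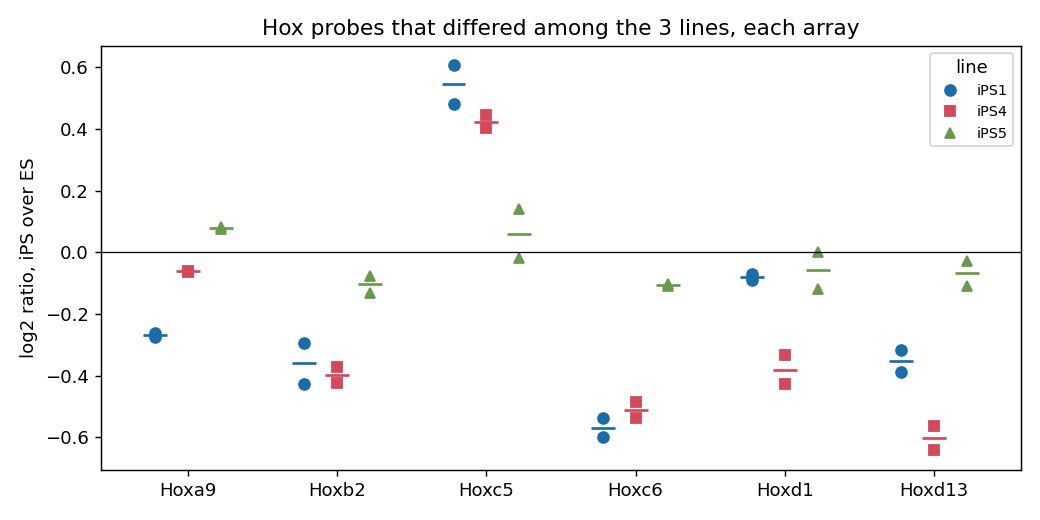
Log2 ratio of iPS over ES on each array (points) and the line mean (bars) for the 6 Hox probes called in the F test among lines. For Hoxb2, Hoxc5, Hoxc6 and Hoxd13 the iPS1 and iPS4 arrays lie farther from 0 than both iPS5 arrays, for Hoxd1 the 2 iPS4 arrays stand apart, and for Hoxa9 the 2 iPS1 arrays stand apart.

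The Hoxb cluster held the only Hox probe above 0 on every array. Hoxb6 (chr11:96292814-96301569), expressed in lateral plate mesoderm in the embryo, had raw signals of 714 and 369 units in the iPS channels of iPS1, against 333 and 595 in the ES channels. In iPS4 they were 574 and 369 in the iPS channels, against 351 and 762 in the ES channels. In iPS5 they were 144 and 175 in the iPS channels, against 228 and 87 in the ES channels. The higher of the 2 channels was the Cy5 channel on every array, and the deposited ratios have this removed. The ratios were 0.20 and 0.18 in iPS1, 0.13 and 0.12 in iPS4 and 0.13 and 0.22 in iPS5. All 6 were above 0. Hoxb6 was called higher in iPS1 (0.19, SE 0.04, limma adjusted p = 0.0126) and iPS5 (0.17, adjusted p = 0.0323) and not in iPS4 (0.13, adjusted p = 0.0677). The iPS1 call was lost in 4 of 13 alternatives and the iPS5 call in 6 of 13. The lines did not pass the test of a difference (F test adjusted p = 0.765). The second Hoxb6 probe had coefficients of 0.06 in iPS1, -0.10 in iPS4 and 0.06 in iPS5 and was called in none of the 5 fits. Hoxb6 overlaps the annotated gene Hoxb5os, and whether RNA of that gene reaches the probe was not tested.

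Hoxb2, a gene of the hindbrain, had ratios of -0.43 and -0.29 in iPS1, -0.37 and -0.42 in iPS4 and -0.08 and -0.13 in iPS5. The first 4 of these do not overlap the last 2. It was called lower in iPS1 (-0.36, SE 0.05, limma adjusted p = 0.000979) and iPS4 (-0.40, adjusted p = 0.000587) and differed among the lines (adjusted p = 0.0435). In iPS1 it was above background in the ES channel of both arrays and in neither iPS channel. Its normalized channel signals averaged 6.05 in iPS1 and 6.33 in the ES pool on the log2 scale. That is 1.21-fold lower in iPS1, an estimate near background and not a lower limit. Hoxb3, its neighbour, was seen in the same way with its dimmer probe, with an estimate of 1.20-fold lower in iPS1 (normalized means 5.92 and 6.18). That probe had ratios of -0.25 and -0.32 in iPS1 and -0.16 and -0.18 in iPS4, was above background in neither channel in iPS5, and was called lower in iPS1 (adjusted p = 0.00212) and iPS4 (adjusted p = 0.0222). The brighter Hoxb3 probe had coefficients of -0.13, 0.06 and 0.10 and was called in none of the 5 fits.

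The posterior Hoxb genes were mostly below 0. Hoxb9, a thoracic gene, had ratios of -0.26 and -0.09 in iPS1, -0.36 and -0.24 in iPS4 and -0.09 and 0.03 in iPS5 for its brighter probe, which was called lower in iPS4 (adjusted p = 0.00583). Its second probe, called lower in iPS1 (adjusted p = 0.00449), had -0.33 and -0.21 there, -0.09 and -0.14 in iPS4 and -0.11 and -0.05 in iPS5. Hoxb13 had -0.17 and -0.27 in iPS1, -0.08 and -0.24 in iPS4 and -0.07 and -0.13 in iPS5, and was called lower in iPS1 (-0.22, adjusted p = 0.0141) and iPS4 (-0.16, adjusted p = 0.0467). The iPS4 call was lost in 7 of 13 alternatives, with -0.09 without the second iPS4 array. Hoxb7, a trunk gene, had -0.12 and -0.31 in iPS1, -0.16 and 0.03 in iPS4 and 0.11 and -0.01 in iPS5 and was called lower in iPS1 (adjusted p = 0.0426). The Hoxb5 probe was called lower in iPS1 (adjusted p = 0.0306), but was above background in no channel of any array, so no fold is given. Hoxb1, Hoxb4 and Hoxb8 had 4 probes with array ratios from -0.19 to 0.16, none called in the 5 fits.

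In the Hoxa cluster the values were small, and 14 of 16 probes were below 0 in the mean of the lines, with 15 below 0 in iPS1, 14 in iPS4 and 8 in iPS5. Hoxa9, which acts in the trunk and in blood progenitors, had -0.27 and -0.26 in iPS1, -0.06 and -0.06 in iPS4 and 0.08 and 0.07 in iPS5. The 3 lines did not overlap. It was called lower in iPS1 (-0.27, SE 0.04, limma adjusted p = 0.00215) and differed among the lines (adjusted p = 0.0182), while its start region, printed above, is the one with the fewest CG dinucleotides. Hoxa10, a gene of the lumbar region and the uterus, had -0.20 and -0.20 in iPS1 and -0.06 and -0.06 in iPS4, was above background in neither channel in iPS5, and was called lower in iPS1 (adjusted p = 0.00912). Hoxa7 had -0.21 and -0.10 in iPS1, -0.06 and -0.05 in iPS4 and 0.01 and 0.10 in iPS5, and was called lower in iPS1 with an adjusted p of 0.0457. That call was lost in 8 of 13 alternatives, and the iPS1 value was -0.08 without the first iPS1 array.

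The Hoxa5 probe, for a gene needed in lung and neck development, was called lower in iPS1 (adjusted p = 0.00309) and iPS4 (adjusted p = 0.00639). It was above background in no channel of any array, so no fold is given. Hoxa3, Hoxa6 and Hoxa13 were above background in both channels of every array and were called in none of the 5 fits. Hoxa3, which patterns the pharyngeal arches, had ratios of 0.03 and 0.03 in iPS1, 0.03 and 0.04 in iPS4 and -0.09 and -0.02 in iPS5 for its brightest probe. Hoxa6, in the trunk, had -0.12 and -0.05 in iPS1, -0.06 and -0.04 in iPS4 and -0.04 and 0.07 in iPS5. Hoxa13, at the posterior end of the cluster, had 0.08 and -0.08 in iPS1, 0.00 and -0.07 in iPS4 and 0.02 and -0.08 in iPS5 for its brightest probe. Hoxa2, Hoxa4 and Hoxa11 had 4 probes with array ratios from -0.17 to 0.19, none called in the 5 fits. With all 6 arrays counted as replicates the dimmer Hoxa4 probe was called lower (-0.10, adjusted p = 0.0446), in a setting that called 28.7% of all gene probes.

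Genes that act on the clusters or with Hox proteins were counted from lists of known members, 1 probe per gene, by the same test of the 3 lines. That test called 4.58% of all gene probes higher and 5.14% lower. Of 8 Hox cofactor genes, 1 was higher and 0 lower, with a median log2 ratio of -0.01, and the 1 is Pknox1 at 0.32 (adjusted p = 0.0357). Of 6 Cdx and ParaHox genes, which act upstream of or in parallel to Hox genes, 0 were called by limma (2 at an unadjusted p under 0.05, Cdx1 at 0.21 and Gsx1 at -0.18), with a median of 0.03. Of 18 retinoic acid pathway genes 1 was higher, the receptor gene Rxra at 0.75 (adjusted p = 0.0182). The retinoic acid binding genes Crabp1 at -1.69 (adjusted p = 0.0255) and Crabp2 at -0.52 (adjusted p = 0.0438) were the 2 lower. By line, cofactor genes called higher and lower were 2 and 0 in iPS1, 1 and 0 in iPS4, 1 and 2 in iPS5. Cdx1 was called higher in iPS4 and iPS5, and Gsx1 lower in iPS1 and iPS4. Retinoic acid genes called higher and lower were 5 and 6 in iPS1, 1 and 9 in iPS4, 2 and 5 in iPS5. Among them Cyp26a1 was higher in iPS1 (1.13) and lower in iPS4 (-0.18) and iPS5 (-0.17).

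Of 27 Polycomb genes, which encode the repressors of the clusters, 3 were higher and 2 lower, with a median of 0.05. Of all gene probes, 4.58% were higher and 5.14% lower in the same test. Mtf2 was at 0.46 (adjusted p = 0.0193), Phc2 at 0.35 and Cbx2 at 0.26 among the higher, and Pcgf5 at -1.14 (adjusted p = 0.0249) and Ezh1 at -0.22 among the lower. Of 11 trithorax and H3K27 demethylase genes, which oppose Polycomb, 4 were higher, led by Kmt2c at 0.45 and Wdr5 at 0.35, and 1 was lower, Ash2l at -0.65. Of 21 genes that flank the clusters 1 was higher, Evx2 at 0.77 (SD 0.08, 3 lines, adjusted p = 0.0173), and 2 were lower, Hibadh at -0.24 and Nfe2l1 at -0.25. Evx2 lies beside Hoxd13. Its coefficients were 0.68 in iPS1, 0.83 in iPS4 and 0.81 in iPS5, against -0.35, -0.60 and -0.07 for the brighter Hoxd13 probe. By line, Polycomb genes called higher and lower were 10 and 5 in iPS1, 11 and 6 in iPS4, 8 and 5 in iPS5. For trithorax and demethylase genes the counts were 7 and 2, 5 and 2, and 5 and 2 in the same order of lines. For flanking genes they were 6 and 7, 3 and 6, and 3 and 6.

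Pluripotency genes gave the check of the cells. Of 17 measured, all 17 were above background in every channel of every array. Nanog was at 0.65 and Sall4 at 0.65 in the test of the 3 lines, and Zfp42 was at -2.81, Fgf4 at -0.83 and Tdgf1 at -0.38, all called. In the single-line fits 4 of the 17 were higher and 11 lower in iPS1, 8 higher and 4 lower in iPS4, and 7 higher and 5 lower in iPS5.

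**Figure D4:**
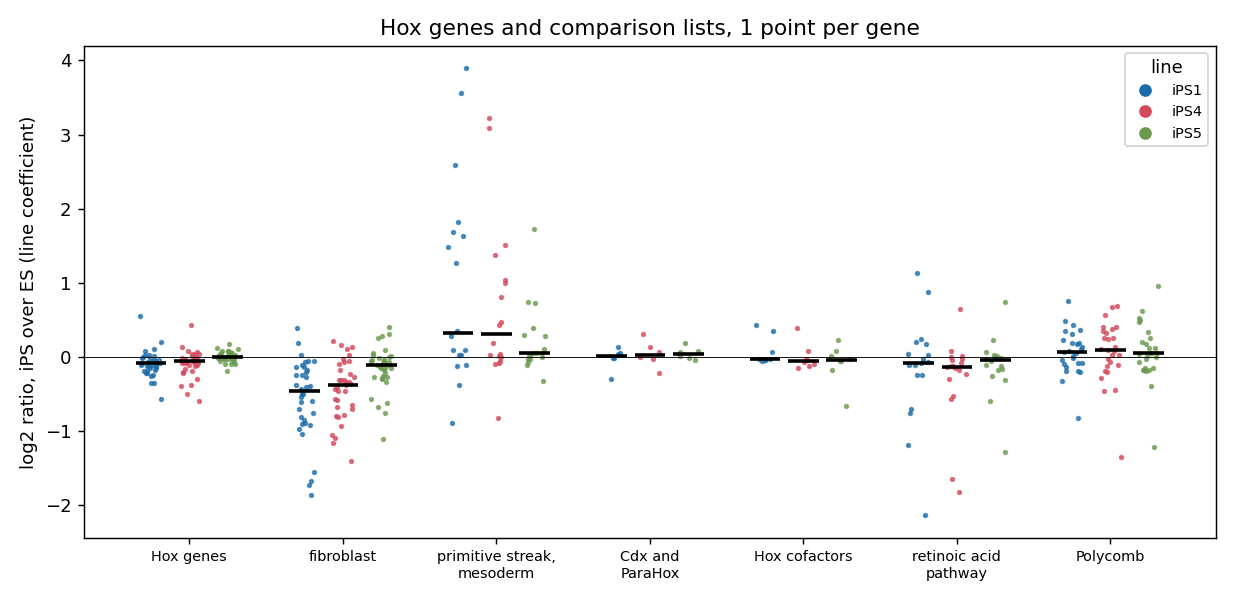
Line coefficients (log2 ratio of iPS over ES) of the Hox genes, 1 point per gene by the brightest probe, beside 6 other gene lists, with the median as a black bar. Over all 50 Hox probes the medians are -0.085 in iPS1, -0.068 in iPS4 and -0.0018 in iPS5. The fibroblast medians are -0.47 in iPS1, -0.38 in iPS4 and -0.12 in iPS5, and the primitive streak medians are 0.31, 0.31 and 0.05.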

How the data were processed

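RNA of 3 iPS lines was hybridised against pooled ES RNA on 6 two-colour arrays. The authors deposited raw intensity per spot and channel, and 1 log2 ratio per spot and array, whose normalization is not given in the sources used here. They run as iPS over ES: their correlation with raw Cy5 over Cy3 changed sign with the dye. Per the file headers, the authors' table lists the mean log2 ratio of each reporter with its p-value, from a test not given in the sources used here.

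The main values were the deposited log2 ratios. The 2 arrays of a line were averaged and 3 line means tested against 0. Single lines and the F test used 6 arrays with line coefficients and a dye term (limma 3.58.1, R 4.3.3, two-sided, Benjamini-Hochberg over 41174 probes). Only the test of the 3 line means was run on simulated data, not the single-line fits or the F test. A test against 0 leaves out the spread of the ES pool. Detection used raw signals against 604 dim control spots per array (percentile 95). The number of arrays limits precision. The 21 genes called in any fit or above background in one kind of channel on every array are given singly, and ranges are given for the other 15. Array values are not printed for Hoxa5, Hoxb5 and Hoxc8, nor those in iPS5 for Hoxc9, Hoxa10 and the dimmer Hoxb3 probe. A gene's brightest probe stands for it. Promoters are from RefSeq, GRCm38.p6. Alternatives were other background corrections, scaling, filters and leaving out arrays or lines. The members and lists were chosen with earlier results of these data known.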

Additional observations from a re-analysis of the deposited data

Results flagged for a closer look

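Of the 50 Hox probes, 6 differed among the 3 lines by limma's F test of the difference itself. The adjusted p was 0.0182 for Hoxa9, 0.0435 for Hoxb2, 0.0133 for Hoxc5, 0.00505 for Hoxc6, 0.031 for Hoxd1 and 0.00551 for Hoxd13. Of all gene probes, 17.1% passed this test. The iPS5 arrays, on which fewer probes were above background, had the line mean nearest to 0 for Hoxb2, Hoxc5, Hoxc6, Hoxd1 and Hoxd13, and their part in the differences was not tested. For Hoxa9 the iPS4 mean was the nearest to 0.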

How the results depend on the processing

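Shares in brackets are of all gene probes called in the same setting. In the test of the 3 lines, 0 Hox probes were called (9.72%), 2 with normexp at offset 0 (11.9%), 3 without line iPS5 (12.7%), 11 with all 6 arrays as replicates (28.7%), and 0 with the ES pool counted as a sample (0%). Leaving out single arrays gave 0 each time (5.65% to 13.9%). For iPS1, 15 were called (34.6%), 6 with normexp at offset 0 (18%), 7 of 15 probes above background in a channel on every array (52%), and 6 to 22 when an array was left out (16.4% to 44.4%). For iPS4, 11 were called (35.1%), 5 with normexp at offset 0 (18.2%), 4 with that filter (53.5%), and 6 to 17 when an array was left out (20% to 44%). For iPS5, 2 were called (19.7%), 1 with the filter (35.7%), 0 with gene means (19.6%), and 1 whichever array was left out (15.4% to 23.7%). The F test called 6 (17.1%), 0 with normexp at offset 0, where no gene probe was called (0%), 1 with the filter (29.6%), and 4 to 8 when an array was left out (11.9% to 28%). The filter tests fewer probes, and the cause of the other changes was not tested. The number of mean ratios below 0, 39, ran from 37 to 42 over the alternatives, which were chosen after seeing the data.

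Genes above background on every array were 5 in the iPS channel, with 1 at the 99th percentile, 3 net of local background and 8 with median pixel signals (chosen after seeing the data), and 5 to 14 when an array was left out. In the ES channel they were 6, with 1 at the 99th percentile, and 6 to 16 when an array was left out. Of 28 called single-line values none changed sign. Under every alternative run for them 8 passed, those of Hoxb2, Hoxc5, Hoxc6 and Hoxd13 in iPS1 and iPS4. The filter on probes above background left out the called probes of Hoxb2, Hoxc5 and Hoxd13. Replicate numbers only name arrays in accession order and pair none, and dye orientation was a term in the single-line and F fits. Signals near background limit all values.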
